A study of Mus musculus with 9 samples.

Results

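The genes described here encode molecular chaperones and the cochaperones that carry a chaperone symbol. Members were all protein-coding genes whose symbol began with Hspa, Hspb, Hspd, Hspe, Hsph, Hsp90, Dnaja, Dnajb or Dnajc, together with Cct2 to Cct8 and Tcp1. This rule used no measured value and gave 83 genes, of which 82 had a row in the deposited table and 73 passed the filter on low counts, beside 15267 protein-coding genes tested in all. The 73 comprised 11 HSP70 genes, 3 HSP110 genes, 3 HSP90 genes, 4 small heat shock proteins, 3 genes with another Hspb symbol, both subunits of the mitochondrial chaperonin, 39 J-domain genes and 8 subunits of the cytosolic chaperonin CCT.

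Chaperones hold, fold, refold or pass on other proteins. HSP70 proteins bind short stretches of an unfolded chain in a cycle driven by ATP. J-domain proteins of the DNAJA, DNAJB and DNAJC groups bring clients and start that cycle, HSP110 proteins exchange the nucleotide, HSP90 proteins finish kinases and receptors, and the ring-shaped CCT folds actin and tubulin. In neurons these proteins serve, among other tasks, the release and recycling of synaptic vesicles, the folding of membrane proteins in the endoplasmic reticulum and the import of proteins into mitochondria.

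The RNA came from the cytoplasmic fraction of cortices of mice at postnatal day 0, all heterozygous for the *Celf2* knock-in (KI) allele p.R493H, a change in the RNA-binding protein CELF2 that places it in the cytoplasm. The question was which mRNAs come down with CELF2. In RNA immunoprecipitation (RIP) an antibody on beads pulls a protein out of a lysate, and the RNA that comes with it is sequenced. There were 3 CELF2-KI RIP libraries with a rabbit antibody to CELF2, 3 IgG RIP libraries with normal rabbit IgG, each made with 10 µg of antibody for 3 hours, and 3 input libraries from an aliquot taken before the antibody. All 9 libraries carried the same KI allele, so no value below compares KI with wild type, and how many animals went into a library was not given in the sources used here.

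Protein-coding genes held 13523190 to 16840230 counts in CELF2-KI RIP, 9347252 to 14965224 in IgG RIP and 55250725 to 78514665 in input, so the precision was lower in the RIPs than in input. Levels are given in CPM, counts per 1000000 counts of a library scaled by the trimmed mean of M values (TMM), always in the order of replicates 1, 2 and 3. They can be compared for 1 gene between libraries but not between genes, because transcript length was not used. The summed CPM of 8 excitatory neuron markers was 1681 to 2290 in CELF2-KI RIP, 913 to 1062 in IgG RIP and 994 to 1165 in input, and that of 6 erythroid markers was 92.7 to 95.0, 366 to 584 and 877 to 1135. The 6 inhibitory neuron markers also summed highest in CELF2-KI RIP, at 587 to 725 against 330 to 382 in IgG RIP and 462 to 479 in input. All 8 excitatory neuron, 6 inhibitory neuron, 6 radial glia, 6 microglia and 6 endothelial markers had counts. Of the 8 excitatory neuron markers, 3 were higher than both controls. A log2 fold change below 0 was seen for 2 of the 8 over each control, with 1 called lower over input. Of the 6 inhibitory neuron markers, 1 was higher than both controls. A change below 0 was seen for 1 of the 6 over IgG RIP and 2 over input, with 1 called lower over input. Erythroid cells are not named in the labels, and 4 of the 5 erythroid markers tested were lower than both controls. The ribosomal 45S precursor took 10.8% to 34.9% of all counts in IgG RIP and at most 1.76% elsewhere. IgG RIP replicate 3, with 10.8%, stood apart from the other IgG RIPs. The marker sums describe the RNA recovered in each library. They are no measure of cell numbers, since RIPs and input started from the same kind of lysate. Which cells the RNA came from was not tested.

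Chaperone mRNAs lay on both sides of the controls, with more members called lower than higher. A gene was called at a false discovery rate (FDR, Benjamini-Hochberg adjusted over all genes tested with edgeR) under 0.01 with a 2-fold change or more. Over IgG RIP, 8 of the 73 members were higher in CELF2-KI RIP and 16 were lower, where 13.4% and 13.6% of all tested genes were. Over input, 9 were higher and 21 lower, against 14.6% and 15.5% of all genes. Both controls were passed by 7 members that were higher (9.59% of 73, background 7.58%) and by 15 that were lower (20.5%, background 9.54%). These comparisons share the CELF2-KI RIP libraries, so passing both is not independent evidence. Without IgG RIP replicate 3, 8 members were higher and 15 lower than both controls, and without input replicate 2, 3 were higher and 16 lower. Of the 7 higher members, 3 (*Dnajc5*, *Dnajb1* and *Dnajb14*) kept the call against both controls in all 9 fits that left out a library, as did 10 of the 15 lower ones. *Dnajb13* kept it in 7, *Dnajc11* in 5, and *Dnajc17*, *Dnajc21* and *Hspbp1* in 3.

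The median log2 fold change of the members was -0.28 over IgG RIP and -0.43 over input, beside -0.06 and 0.19 over all tested genes. These counts moved with the scaling. With total counts in place of TMM, which shifted the median of all genes by -0.37 over IgG RIP and -0.46 over input, the members split into 3 higher and 25 lower than both controls. Measured from the median of all genes, the members lay at -0.22 over IgG RIP and -0.63 over input with TMM, and at -0.21 and -0.60 with total counts. All 3 CELF2-KI RIP libraries were above all 6 controls for 14 members (background 25.2%) and below all 6 for 27 (background 19.9%).

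**Figure D1:**
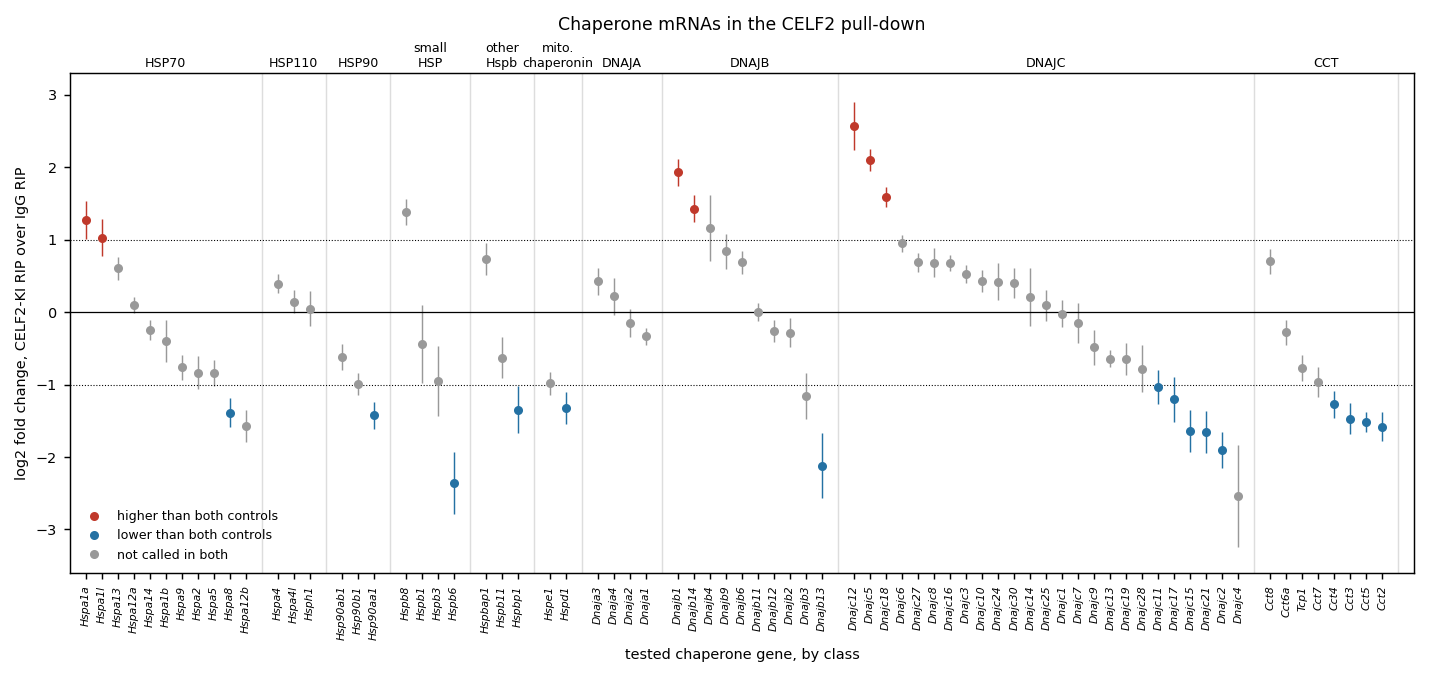
Each of the 73 tested chaperone genes is plotted by its log2 fold change (CELF2-KI RIP over IgG RIP) with its standard error, grouped by class and ordered within a class, with dotted lines at a 2-fold change. Red marks the 7 members higher than both controls and blue the 15 lower than both, and the red points sit in the HSP70, DNAJB and DNAJC groups while 4 of the 8 CCT subunits are blue. Of all tested genes, 7.58% were higher and 9.54% lower than both controls.

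Among the 39 J-domain members, 5 were higher (12.8%) and 6 lower (15.4%) than both controls, beside 7.58% and 9.54% of all tested genes. These counts were 3 and 5 without input replicate 2, and 5 and 2 without CELF2-KI RIP replicate 3. The median log2 fold changes of the J-domain members were 0.10 (IgG RIP) and 0.01 (input). Among the 34 other members, 2 were higher (5.88%) and 9 lower (26.5%) than both controls, with medians of -0.76 and -0.73. None of the 3 HSP110 and 4 DNAJA members was called by edgeR or by DESeq2 over either control, while at an unadjusted p under 0.05 edgeR had 1 HSP110 member higher over each control, and among the DNAJA members 1 higher and 1 lower over IgG RIP and 2 lower over input. At that p, 30.6% of all tested genes were higher and 29.8% lower over IgG RIP, and 37.2% and 27.3% over input. Together the members took 0.475% to 0.553% of protein-coding counts in CELF2-KI RIP, 0.717% to 0.978% in IgG RIP and 0.922% to 0.927% in input, so the CELF2-KI RIPs lay below every control, as they did without *Hspa8* (0.437% to 0.492%, 0.591% to 0.791% and 0.711% to 0.719%). The 27 DNAJC genes in this sum took 0.139% to 0.159% in CELF2-KI RIP, above every control, with 0.0970% to 0.1003% in IgG RIP and 0.112% to 0.120% in input. This rested on *Dnajc5*, without which the other 26 took 0.0795% to 0.0823%, 0.0756% to 0.0805% and 0.0817% to 0.0888%, with CELF2-KI RIP overlapping both controls.

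*Dnajc5* (NCBI RefSeq gene on chr2:181518858-181552886, mouse build GRCm38.p6) encodes cysteine string protein alpha, the J-domain protein of synaptic vesicles that works with HSC70 on the release machinery. It stood at 646, 1008 and 821 CPM in CELF2-KI RIP, 191, 199 and 188 with IgG and 258, 267 and 272 in input. Every CELF2-KI RIP library was thus more than 2-fold above every control library, with replicate 2 the highest. The log2 fold change was 2.10 ± 0.15 (SE) over IgG RIP (edgeR FDR = 7.93e-06) and 1.63 ± 0.15 over input (FDR = 1.30e-05). This was the only member higher than both controls in all 9 fits that left out a library and under all 12 other settings. *Dnajc6*, which encodes the neuronal auxilin that strips clathrin from vesicles, stood at 173, 191 and 167 CPM in CELF2-KI RIP, 83.5, 85.7 and 106 with IgG and 107, 111 and 101 in input. Its CELF2-KI RIP libraries also lay above all 6 controls, but its changes of 0.95 ± 0.12 (FDR = 9.36e-05) and 0.74 ± 0.12 (FDR = 3.74e-04) fell short of 2-fold. The summed excitatory and inhibitory neuron markers given above were also highest in CELF2-KI RIP, although single markers of both lists went both ways. Their part in these values was not tested.

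*Dnajb1* (chr8:83608175-83612653), the heat-inducible HSP40 that recruits HSP70 to aggregates, had 91.3, 151 and 121 CPM in CELF2-KI RIP against 26.4, 33.1 and 35.8 with IgG and 42.1, 41.9 and 46.5 in input. The groups did not overlap, and the lowest CELF2-KI RIP library was at nearly 2-fold the highest control. It changed by 1.93 ± 0.19 (log2) over IgG RIP (FDR = 2.42e-05) and 1.48 ± 0.18 over input (FDR = 8.07e-05). *Dnajb6*, which encodes a suppressor of polyglutamine aggregation, stood at 70.8, 106 and 79.3 CPM in CELF2-KI RIP, 46.1, 57.7 and 55.2 with IgG and 63.4, 65.5 and 71.5 in input. Here replicate 1 of CELF2-KI RIP lay within the input range, and the change over IgG RIP of 0.69 ± 0.16 (FDR = 0.00438) was under 2-fold. *Dnajb4*, singled out after its values were seen, had changes of 1.16 ± 0.45 (FDR = 0.0505) and 1.03 ± 0.44 (FDR = 0.0636) that missed the FDR, with 10.6, 18.4 and 9.37 CPM in CELF2-KI RIP and 2.94, 3.47 and 10.7 in IgG RIP, where replicate 3 lay among the CELF2-KI RIPs.

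*Dnajb14* and *Dnajc18* encode J-domain proteins anchored in the membrane of the endoplasmic reticulum (ER) with the J domain facing the cytosol. *Dnajb14* (chr3:137867675-137916563) stood at 111, 191 and 141 CPM in CELF2-KI RIP, 57.8, 57.7 and 48.5 with IgG and 55.4, 56.96 and 48.2 in input. *Dnajc18* (chr18:35671103-35708418) stood at 179.8, 260.1 and 206 CPM in CELF2-KI RIP, 64.5, 72.7 and 77.3 with IgG and 101, 101 and 103 in input. Both were higher in every CELF2-KI RIP library than in any control. The changes of *Dnajb14* were 1.43 ± 0.19 (FDR = 1.21e-04) and 1.46 ± 0.19 (FDR = 8.70e-05), and those of *Dnajc18* were 1.59 ± 0.14 (FDR = 1.55e-05) and 1.08 ± 0.14 (FDR = 9.66e-05). The call of *Dnajc18* over input was lost under 9 of 12 other settings. Their relative *Dnajb12*, the third of these ER membrane proteins, had 25.03, 23.5 and 24.9 CPM in CELF2-KI RIP against 40.8, 39.4 and 43.2 in input, a change of -0.75 ± 0.14 (FDR = 0.00126) in the other direction and under 2-fold. It was singled out after its values were seen.

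*Dnajc12*, a cochaperone of the hydroxylases that make serotonin and dopamine, was low everywhere, with 4.40, 6.39 and 4.11 CPM in CELF2-KI RIP, 0.876, 0.595 and 1.003 with IgG and 1.78, 1.60 and 1.68 in input. The groups were apart, and the change over IgG RIP, 2.57 ± 0.33 (FDR = 1.14e-04), was the largest rise among the members. Over input it was 1.56 ± 0.30 (FDR = 0.00118), a call lost without input replicate 2. *Dnajc27*, which joins a small GTPase to a J domain, had 76.9, 97.02 and 75.7 CPM in CELF2-KI RIP, 52.2, 55.3 and 47.3 with IgG and 40.4, 41.2 and 42.6 in input, with 1.01 ± 0.13 over input (FDR = 8.52e-05) just inside the threshold and 0.69 ± 0.13 over IgG RIP (FDR = 0.00111) outside it. That call over input was lost under 10 of 12 other settings, the replicate block among them, and in 3 of 9 fits that left out a library.

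The stress-inducible HSP70 genes *Hspa1a* and *Hspa1b* and their relative *Hspa1l* lie close together on chromosome 17. *Hspa1a* (chr17:34969359-34972156) stood at 11.5, 9.55 and 14.3 CPM in CELF2-KI RIP, 4.94, 6.05 and 3.66 with IgG and 5.42, 4.26 and 6.73 in input, and its neighbour *Hspa1l* (chr17:34972703-34979228), known from the testis, at 6.64, 9.70 and 8.84 CPM in CELF2-KI RIP, 2.94, 4.36 and 5.09 with IgG and 4.12, 3.93 and 3.80 in input. Both were above every control library. The changes were 1.28 ± 0.26 (FDR = 0.00221) and 1.11 ± 0.25 (FDR = 0.00363) for *Hspa1a*, and 1.03 ± 0.25 (FDR = 0.00613) and 1.09 ± 0.25 (FDR = 0.00332) for *Hspa1l*. These 2 calls are uncertain. *Hspa1b*, a near-identical copy of *Hspa1a*, had 5.44, 4.23 and 3.84 CPM in CELF2-KI RIP, 6.51, 3.87 and 7.38 with IgG and 3.29, 2.69 and 3.54 in input, and with both copies summed the change was 0.59 over IgG RIP and 0.91 over input, below the threshold. The calls of *Hspa1a* and *Hspa1l* against both controls each held under 3 of 12 other settings, and in 5 and 2 of 9 fits that left out a library. The summed CPM of 8 immediate early genes, a list of the response to tissue dissociation, was also highest in CELF2-KI RIP, at 195 to 228 against 121 to 127 in IgG RIP and 134 to 158 in input. Its member *Jun* passed the FDR over both controls without reaching 2-fold (0.96 ± 0.13 and 0.88 ± 0.13), *Ier2* was lower than both (-1.03 ± 0.20 and -1.51 ± 0.19), and the part of these genes in the values of *Dnajb1* and *Hspa1a* was not tested.

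**Figure D2:**
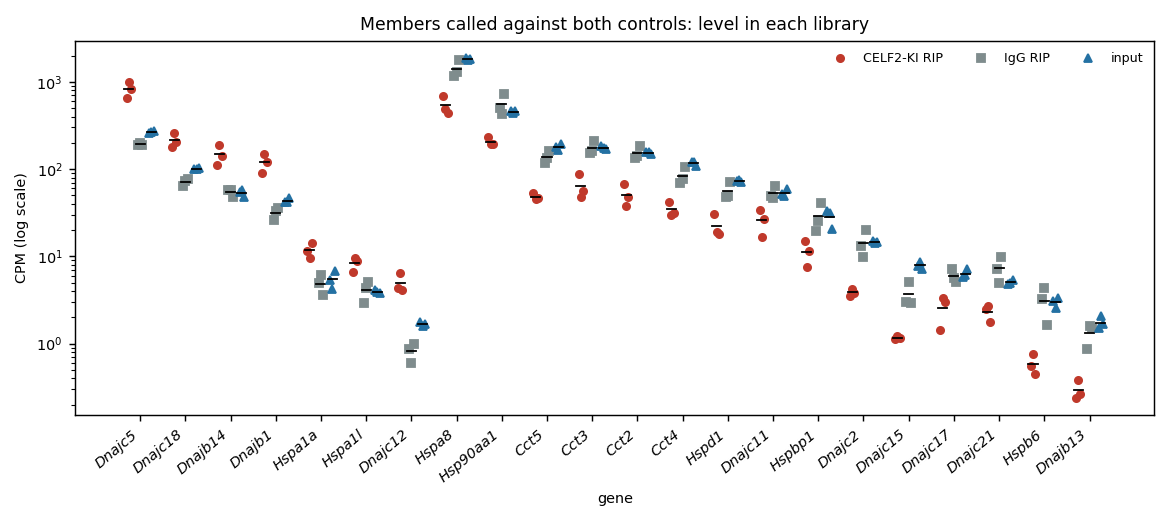
Level in CPM, on a log scale, of the 7 members higher and the 15 lower than both controls in each of the 9 libraries, with black bars at the mean of 3 libraries. For the 7 genes on the left the CELF2-KI RIP circles lie above all control libraries, and for the 15 on the right, from *Hspa8* to *Dnajb13*, they lie below them.

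*Hspa8* and *Hsp90aa1* went the other way. *Hspa8* (chr9:40801276-40805202) encodes HSC70, the housekeeping HSP70 and the partner of the vesicle J proteins above. It had 697, 485 and 443 CPM in CELF2-KI RIP, 1177, 1283 and 1786 with IgG and 1889.7, 1799 and 1839 in input, so the highest CELF2-KI RIP library was below the lowest control. The log2 fold change was -1.39 ± 0.20 over IgG RIP (FDR = 2.00e-04) and -1.77 ± 0.20 over input (FDR = 4.23e-05). *Hsp90aa1* (chr12:110691036-110696395), the stress-responsive cytosolic HSP90, had 234, 192 and 193 CPM in CELF2-KI RIP, 501, 429 and 730.3 with IgG and 458, 438 and 467 in input. Again no CELF2-KI RIP library reached a control, and the changes were -1.43 ± 0.18 (FDR = 1.05e-04) and -1.14 ± 0.18 (FDR = 3.55e-04).

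Its constitutive partner *Hsp90ab1* (chr17:45567778-45573261) was not called, with 982, 908 and 921 CPM in CELF2-KI RIP, 1141, 1235 and 1934 with IgG and 1220.2, 1170.3 and 1408 in input. Its CELF2-KI RIP libraries were also the lowest, yet the changes of -0.62 ± 0.18 (FDR = 0.0155) and -0.43 ± 0.18 (FDR = 0.0617) missed the threshold. In both HSP90 genes IgG RIP replicate 3 was the highest library. The HSP110 gene *Hspa4*, a nucleotide exchange factor for HSP70, stood at 205, 176 and 184 CPM in CELF2-KI RIP, 129, 132 and 168 with IgG and 168, 162 and 148 in input. All 3 CELF2-KI RIPs were above the controls by a small margin, with 0.40 ± 0.13 (FDR = 0.0216) and 0.24 ± 0.13 (FDR = 0.116), neither of which passed, and the value over input turned to -0.21 with total counts. Its paralogues *Hsph1* and *Hspa4l* overlapped the controls, with 51.5, 51.7 and 71.6 CPM in CELF2-KI RIP, 69.7, 42.2 and 56.8 with IgG and 46.1, 37.7 and 64.4 in input for *Hsph1*. In the DNAJA group, *Dnaja1*, the farnesylated cytosolic HSP40, stood at 79.7, 71.99 and 68.1 CPM in CELF2-KI RIP, 102, 90.99 and 83.8 with IgG and 120.4, 122 and 135 in input, below all controls, and passed the FDR over input at -0.78 ± 0.12 without reaching 2-fold. *Dnaja3*, the mitochondrial J protein TID1, overlapped both controls, with 31.7, 21.4 and 25.1 CPM in CELF2-KI RIP, 15.8, 18.5 and 23.9 with IgG and 25.7, 25.2 and 26.7 in input, and did not pass (FDR = 0.0809 and 0.967).

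The cytosolic chaperonin CCT is a double ring of 8 different subunits, all of which were tested. *Cct2*, *Cct3*, *Cct4* and *Cct5* were lower than both controls (4 of 8, background 9.54%). Over input *Cct7* was lower as well (5 of 8, background 15.5%). *Cct5* (chr15:31590800-31601846), the epsilon subunit, had 52.7, 45.4 and 46.2 CPM in CELF2-KI RIP, 117, 135 and 162 with IgG and 177, 167 and 193 in input. Every control was at more than 2-fold the CELF2-KI RIPs, with changes of -1.52 ± 0.14 (FDR = 1.62e-05) and -1.90 ± 0.14 (FDR = 4.05e-06). *Cct2* had 66.9, 38.04 and 48.6 CPM in CELF2-KI RIP, 134, 141 and 184 with IgG and 158, 156 and 149 in input, *Cct3* had changes of -1.47 ± 0.21 and -1.46 ± 0.21, and *Cct4* of -1.27 ± 0.19 and -1.75 ± 0.19.

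*Cct7* was at -0.97 ± 0.21 over IgG RIP, just outside the threshold, and at -1.01 ± 0.21 over input, just inside it. *Tcp1*, the alpha subunit, passed the FDR at -0.77 ± 0.18 and -0.94 ± 0.18 without reaching 2-fold, and *Cct6a* did not pass at -0.28 ± 0.17 (FDR = 0.199) and -0.55 ± 0.17 (FDR = 0.0187). *Cct8* (chr16:87483325-87495869), the theta subunit, was the exception. It had 219.8, 221 and 194 CPM in CELF2-KI RIP, 100.1, 119 and 169.6 with IgG and 125, 126 and 124 in input. All 3 CELF2-KI RIPs were above all 6 controls, at 0.71 ± 0.17 (FDR = 0.00537) and 0.76 ± 0.17 (FDR = 0.00316), a difference under 2-fold that kept its sign under each scaling tried. The proteins are built into 1 ring, while their mRNAs were on both sides of the controls. IgG RIP replicate 3 was the highest IgG RIP for all 8 subunits, and without it the 4 calls against both controls were unchanged.

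**Figure D3:**
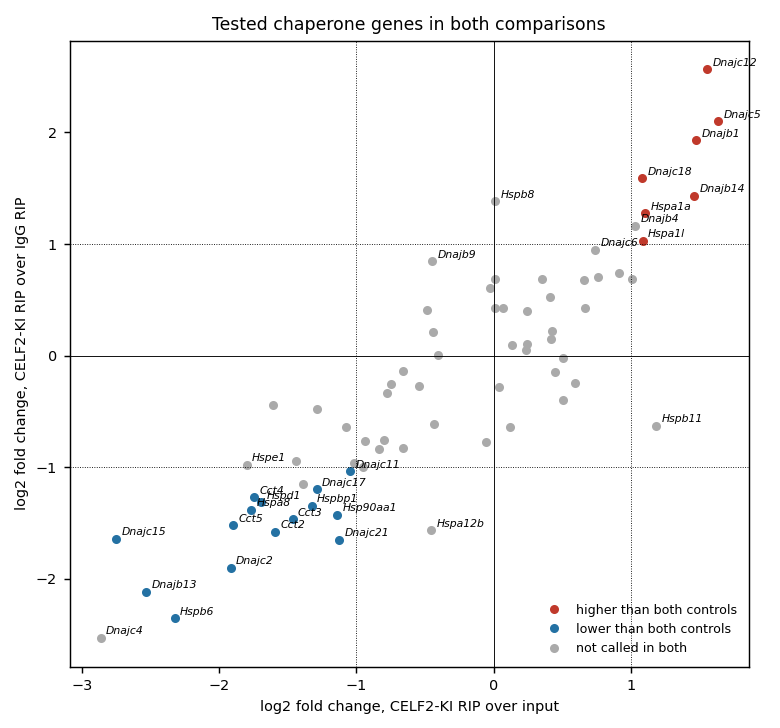
Log2 fold change of each tested chaperone gene in CELF2-KI RIP over input (horizontal) and over IgG RIP (vertical), which share the CELF2-KI RIP libraries, with dotted lines at 2-fold. The 7 red members lie in the upper right corner and the 15 blue ones in the lower left, while *Hspb8*, *Hspb11* and *Hspa12b* lie off the diagonal.

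The mitochondrial members were lower or not called. By edgeR 3 of 8 were below both controls (background 9.54%) and 0 above (background 7.58%), with 0 above by DESeq2 as well. At an unadjusted edgeR p under 0.05, 1 was higher and 6 lower over IgG RIP and 0 higher and 7 lower over input, beside the shares of all genes at this p given above. IgG RIP over input was also below 0 for all 8, with a median log2 fold change of -0.42 beside -0.004 over all tested genes. In that comparison 1 of the 8 was called lower (background 5.0%), so part of the drop from input was also present with IgG. *Hspd1* and *Hspe1* encode HSP60 and HSP10, the barrel and the lid of the mitochondrial chaperonin. *Hspd1* had 30.5, 19.02 and 18.03 CPM in CELF2-KI RIP, 48.3, 48.8 and 71.1 with IgG and 72.6, 74.4 and 71.6 in input, with changes of -1.32 ± 0.22 (FDR = 5.86e-04) and -1.69 ± 0.22 (FDR = 1.03e-04). *Hspe1* had 8.80, 8.78 and 6.51 CPM in CELF2-KI RIP, 15.96, 15.2 and 16.5 with IgG and 26.8, 26.3 and 30.8 in input. Both were lower in every CELF2-KI RIP than in any control, and *Hspe1* was called over input at -1.80 ± 0.16 (FDR = 1.11e-05) while its -0.98 ± 0.16 over IgG RIP was just short of 2-fold. They lie head to head on chromosome 1, with RefSeq spans that overlap at their starts. A match to the heat shock element, searched as GAA, TTC and GAA with 2 bases of any kind between them, on both strands from 250 bases before to 50 bases after each RefSeq start, falls in a window of each gene. It lies before the start of *Hspe1* and before an inner RefSeq start of *Hspd1*, so inside the outer span of *Hspd1*. It is shown because both genes have it in a window and both mRNAs were below every control. Capitals mark the matched bases, joined where matches overlap, of the same stretch, chr1:55088055-55088080, read on each gene's own strand (RefSeq, GRCm38.p6).
Hspd1: ggccTTCCGGAAGGTTCTAGAAcgga
Hspe1: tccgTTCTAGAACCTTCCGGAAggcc

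This motif was in 0.603% of 32851 promoters and in 6 of 87 promoters of 68 members, those of *Hspd1*, *Hspe1*, *Dnajb6* and *Hsph1*. The 6 are windows and not separate sites. *Hspd1* and *Hspe1* share the stretch above, and the overlapping windows of *Dnajb6* hold the same match, as do those of *Hsph1*. A match is a description of letters and not of a bound site. The list of 8 heat-inducible members, chosen from textbook knowledge, went both ways. *Dnajb1* and *Hspa1a* were higher and *Hsp90aa1* and *Hspd1* lower than both controls (backgrounds 7.58% and 9.54%). The call of *Hspa1a* held under 3 of 12 other settings and in 5 of 9 fits that left out a library. With DESeq2 1 of the 8 was higher and 3 were lower than both controls.

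*Dnajc15* and *Dnajc11* were the other mitochondrial members lower than both controls. *Dnajc15*, a J protein of the inner membrane import motor, had 1.12, 1.23 and 1.16 CPM in CELF2-KI RIP, 3.003, 5.15 and 2.94 with IgG and 7.80, 8.70 and 7.20 in input. The groups stood in that order without overlap, with -1.64 ± 0.29 (FDR = 8.28e-04) and -2.75 ± 0.29 (FDR = 2.75e-05), and IgG RIP itself was lower than input at -1.11 ± 0.26 (FDR = 0.00744), a call kept in 2 of 9 fits that left out a library. *Dnajc11*, of the inner membrane organising complex, was near the line at -1.04 ± 0.23 and -1.04 ± 0.23. *Dnajc19*, also of the import motor, was called over input only, at -1.08 ± 0.22 (FDR = 0.00176). *Hspa9*, the mitochondrial HSP70 and singled out after its values were seen, had 104, 61.8 and 75.1 CPM in CELF2-KI RIP, 128, 129 and 151 with IgG and 142, 139 and 139 in input, and its -0.76 ± 0.17 and -0.80 ± 0.17 passed the FDR but not 2-fold.

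The ER members went both ways. Of 13 ER members, 2 (*Dnajb14* and *Dnajc18*) were higher and 0 lower than both controls by edgeR (backgrounds 7.58% and 9.54%). With DESeq2 1 was higher and 1 lower, and at an unadjusted edgeR p under 0.05 7 were higher and 2 lower over IgG RIP and 5 higher and 4 lower over input, beside 30.6% and 29.8% of all genes over IgG RIP and 37.2% and 27.3% over input. The 2 lower over IgG RIP were the lumenal chaperones *Hspa5* and *Hsp90b1*. *Hspa5* encodes BiP, the HSP70 of the ER lumen, and had 314, 231 and 278 CPM in CELF2-KI RIP, 398, 442 and 631 with IgG and 482, 519 and 465 in input. *Hsp90b1* encodes GRP94, its HSP90 partner, and had 218, 190.1 and 176 CPM in CELF2-KI RIP, 347, 329.9 and 487 with IgG and 376, 386 and 368 in input. Both were below every control, at -0.84 ± 0.18 (FDR = 0.00239) and -0.83 ± 0.18 (FDR = 0.0022) for *Hspa5* and -0.996 ± 0.15 (FDR = 3.37e-04) and -0.95 ± 0.15 (FDR = 3.87e-04) for *Hsp90b1*, all under 2-fold.

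*Dnajc3*, the lumenal J protein P58IPK and singled out after its values were seen, lay on the other side, with 68.4, 70.5 and 77.3 CPM in CELF2-KI RIP, 45.1, 49.95 and 55.4 with IgG and 53.6, 59.2 and 49.4 in input and a change of 0.52 ± 0.12 over IgG RIP (FDR = 0.00474), under 2-fold. *Hspa5*, *Hsp90b1* and *Dnajc3* are all induced by the unfolded protein response, and they were the members with a match to the ER stress response element, searched as CCAAT, 9 bases of any kind and CCACG, on both strands in the same windows. It was in 0.119% of 32851 promoters. The stretches are shown because these 3 genes share the motif while their mRNAs differed in direction over IgG RIP. Capitals mark the matched bases, and the stretches are chr2:34772021-34772047 for *Hspa5*, chr10:86705634-86705660 and, on the other strand, chr10:86705529-86705555 for *Hsp90b1*, and chr14:118937823-118937849 for *Dnajc3* (RefSeq, GRCm38.p6), each on the gene's own strand, with the second match of *Hsp90b1* lying on the opposite strand.
Hspa5: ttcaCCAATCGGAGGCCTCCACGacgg
Hsp90b1, first: aagcCCAATCGCAAGGAGCCACGcttc
Hsp90b1, second: agtgCGTGGTGAGGCACGATTGGtgag
Dnajc3: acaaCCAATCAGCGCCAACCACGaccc

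None of the 5 members induced by the unfolded protein response was called by edgeR over IgG RIP or over input, while DESeq2 called 1 lower over each. At an unadjusted edgeR p under 0.05, 2 were higher and 2 lower over IgG RIP, and 1 was higher and 3 lower over input, where 27.3% to 37.2% of all genes were in each direction.

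Further lower J-domain members were *Dnajc2*, *Dnajc21* and *Dnajc17*. *Dnajc2* (chr5:21757266-21785264), the J protein of the ribosome-associated complex, had 3.52, 4.23 and 3.84 CPM in CELF2-KI RIP, 13.3, 9.91 and 19.996 with IgG and 14.9, 14.4 and 14.5 in input. Every control was at more than 2-fold the CELF2-KI RIPs, with -1.90 ± 0.25 (FDR = 1.21e-04) and -1.92 ± 0.25 (FDR = 9.21e-05), and this was the only lower member called in all 9 fits that left out a library and under all 12 other settings. *Hspa14*, its HSP70 partner on the ribosome, was not called lower. That gene, singled out after its values were seen, had 29.7, 31.2 and 34.3 CPM in CELF2-KI RIP, 41.8, 38.2 and 32.8 with IgG and 20.6, 22.9 and 19.7 in input, and was at 0.59 ± 0.14 over input (FDR = 0.00384), under 2-fold, a value that turned to -0.37 with coding transcripts alone. *Dnajc21*, which acts in 60S subunit maturation, had changes of -1.65 ± 0.29 (FDR = 8.14e-04) and -1.12 ± 0.29 (FDR = 0.00634), and *Dnajc17*, a nuclear J protein tied to splicing, of -1.20 ± 0.31 (FDR = 0.00781) and -1.29 ± 0.31 (FDR = 0.00427). With the replicate number as a block, *Dnajc21* over input and *Dnajc17* over IgG RIP were no longer called (-1.11 and -1.24), and each kept its call against both controls in 3 of 9 fits that left out a library. *Dnajc8*, a nuclear J protein of the spliceosome and singled out after its values were seen, did not pass, at 0.69 ± 0.20 over IgG RIP (FDR = 0.015) and 0.01 ± 0.20 over input (FDR = 0.976). *Dnajc9*, a histone chaperone of dividing cells, was lower than input alone, with 10.1, 7.55 and 7.50 CPM against 19.9, 20.99 and 20.2 and a change of -1.28 ± 0.24 (FDR = 9.72e-04).

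*Hspb6* and *Dnajb13* were lower than both controls at low counts. *Hspb6*, the small heat shock protein HSP20 of muscle, had 0.560, 0.770 and 0.446 CPM in CELF2-KI RIP, 3.25, 4.36 and 1.65 with IgG and 3.10, 2.58 and 3.32 in input, with -2.36 ± 0.43 (FDR = 0.00101) and -2.32 ± 0.42 (FDR = 8.42e-04). *Dnajb13*, of the axonemes of cilia and sperm, was at -2.12 ± 0.45 and -2.53 ± 0.43 with 0.240, 0.385 and 0.268 CPM in CELF2-KI RIP, 0.876, 1.59 and 1.51 with IgG and 1.53, 2.05 and 1.67 in input. For neither did a CELF2-KI RIP library reach a control. *Hspbp1*, an exchange factor for HSP70, was at -1.35 ± 0.32 and -1.33 ± 0.32, and was called in neither comparison with the block (-1.36 and -1.36). *Dnajb3* and *Dnajc4* were called lower than input, at -1.39 ± 0.30 and -2.86 ± 0.68, and missed the FDR over IgG RIP (0.0105 and 0.0112). In CELF2-KI RIP *Dnajb3* had 0.880, 0.693 and 0.803 CPM and *Dnajc4* 0, 0.385 and 0.357. These calls over input were kept in 4 and 5 of 9 fits that left out a library.

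For a few members the controls themselves differed. IgG RIP over input gave 2 members higher (background 6.79%) and 3 lower (background 5.0%). *Hspb8*, the partner of BAG3 in selective autophagy, had 7.84, 8.24 and 7.32 CPM in CELF2-KI RIP, 2.94, 3.17 and 2.87 with IgG and 7.64, 7.54 and 8.04 in input. CELF2-KI RIP thus overlapped input, and the change over IgG RIP of 1.38 ± 0.18 (FDR = 1.18e-04) stood beside IgG RIPs that were lower than input at -1.37 ± 0.18 (FDR = 4.18e-04). *Dnajb9*, an ER J protein, also had lower IgG RIPs, with 18.6, 20.1 and 14.01 CPM in CELF2-KI RIP, 9.26, 6.54 and 13.4 with IgG and 24.03, 24.8 and 22.9 in input and -1.29 ± 0.24 for IgG RIP over input (FDR = 0.00241).

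*Hspb11* encodes IFT25 of cilia and is no small heat shock protein in function. It had 24.4, 52.1 and 37.5 CPM in CELF2-KI RIP, 63.3, 73.1 and 39.8 with IgG and 15.8, 18.5 and 15.7 in input. Both RIPs were above input, at 1.19 ± 0.28 for CELF2-KI RIP (FDR = 0.00428) and 1.81 ± 0.28 for IgG RIP (FDR = 0.00103), so its rise over input was also present with IgG. With matching transcript versions, which drop its main transcript, the value for CELF2-KI RIP over input turned to -0.63. *Hspbap1*, which encodes a protein that binds HSP27, stood at 10.2, 17.02 and 14.7 CPM in CELF2-KI RIP, 9.51, 8.92 and 6.67 with IgG and 7.33, 7.07 and 7.86 in input. Its CELF2-KI RIPs lay above all 6 controls, at 0.74 ± 0.22 over IgG RIP (FDR = 0.016) and 0.91 ± 0.22 over input (FDR = 0.00425), just outside 2-fold. *Hspa12b*, an HSP70 relative of endothelium, was highest in IgG RIP, with 21.96, 34.2 and 32.3 CPM against 8.64, 9.39 and 11.8 in CELF2-KI RIP and 11.01, 14.8 and 15.04 in input. It was called lower over IgG RIP at -1.57 ± 0.22 (FDR = 1.77e-04) and did not pass over input, while IgG RIP was above input at 1.11 ± 0.21 (FDR = 0.0026). The summed CPM of 6 endothelial markers was 177 to 257 in CELF2-KI RIP, 162 to 364 in IgG RIP and 213 to 336 in input, overlapping between groups, and its part was not tested.

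The ratio of 2 mRNAs within a library does not depend on how libraries are scaled. The log2 ratio of *Dnajb1* to *Dnaja1* was 0.20, 1.07 and 0.83 in CELF2-KI RIP, -1.95, -1.46 and -1.23 with IgG and -1.52, -1.54 and -1.53 in input. Every CELF2-KI RIP was above every control, a mean difference of 2.24 from IgG RIP and 2.23 from input. *Hspa4* was higher relative to *Hspa8* by 1.80 and 2.04, and *Hsp90aa1* differed relative to *Hsp90ab1* by -0.82 and -0.72. The ratio of *Dnajc6* to *Dnajc5* differed by -1.12 and -0.87, and *Hspa9* to *Hspa8* by 0.60 and 0.96. In these 5 pairs CELF2-KI RIP did not overlap either control. Each had p = 0.1 in the exact two-sided permutation test, the smallest that 3 against 3 libraries allow, and an adjusted p of 0.193 over 27 comparisons, so none could pass at this number of libraries. The pairs *Hspa5*/*Hsp90b1*, *Hspd1*/*Hspe1*, *Hspa4l*/*Hspa4* and *Hsph1*/*Hspa4* overlapped between CELF2-KI RIP and at least 1 control, with differences between -0.34 and 0.17.

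**Figure D4:**
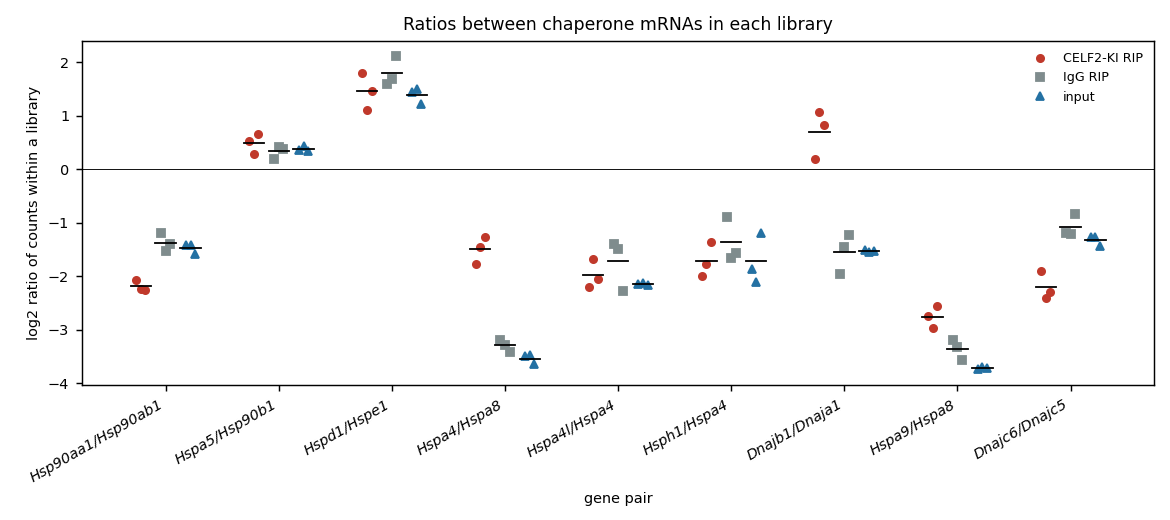
Log2 ratio of the counts of 2 chaperone mRNAs within each library for 9 pairs, with black bars at the mean of 3 libraries. The CELF2-KI RIP circles of *Dnajb1*/*Dnaja1* and *Hspa4*/*Hspa8* lie above all controls, those of *Hsp90aa1*/*Hsp90ab1* and *Dnajc6*/*Dnajc5* below, and the ratios are read between libraries only.

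For some members the transcripts behind the sums shifted too, as a description with no test. The genes below are examples and give no share over all members. Others did not shift, such as *Dnajb1*, whose main transcript held a mean of 97.2% in CELF2-KI RIP, 95.5% in IgG RIP and 97.2% in input. *Dnajb6* has a short form and a long form that differ at the C terminus, and the share of its estimated counts in the transcript NM_011847 was 54.04, 43.7 and 39.9% in CELF2-KI RIP, 55.6, 63.9 and 60.9% with IgG and 72.7, 72.5 and 70.8% in input. The share in NM_001037940 was 43.1, 49.7 and 53.2% in CELF2-KI RIP, 30.4, 27.9 and 32.6% with IgG and 23.1, 23.4 and 24.97% in input. The libraries of the 3 groups did not overlap for either transcript. For *Dnajc19*, NM_026332 held 63.05 to 73.9% in input, 3.997 to 30.7% in IgG RIP and 0 to 8.87% in CELF2-KI RIP, so both RIPs lay far below input. NM_001026211 held 13.8 to 16.6% in input and 67.8 to 71.96% in CELF2-KI RIP, and the IgG RIPs lay between at 25.6 to 29.1%.

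For *Hspa14* the share of the noncoding transcript NR_103465 was 61.8 to 76.1% in CELF2-KI RIP, 40.8 to 50.8% in IgG RIP and 34.2 to 39.5% in input. In *Dnajc21* the predicted transcript XM_017316801 held all estimated counts of the 3 CELF2-KI RIPs and 13.2 to 28.4% of those in input. With IgG its share was 1.54e-06, 45.8 and 35.0%. The gene stood at 2.48, 2.69 and 1.78 CPM in CELF2-KI RIP, so these shares rest on few counts. For *Dnajc5* the share of NM_016775 was 50.2 to 57.02% in CELF2-KI RIP and 55.1 to 64.2% in input, which overlapped, and 21.8 to 36.2% in IgG RIP. Estimates of transcripts with few private reads are unsteady, as *Dnajc12* shows, where NM_013888 held 49.2% and 52.8% in replicates 1 and 2 of input and nearly all counts in replicate 3.

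**Figure D5:**
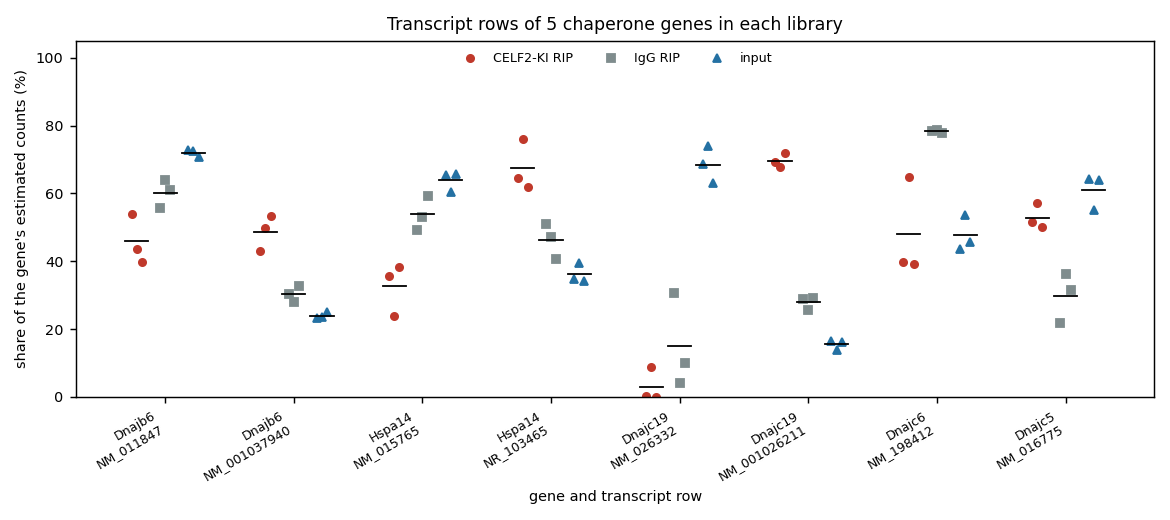
Share in percent of a gene's estimated counts in a given transcript row, in each library, for 8 rows of 5 chaperone genes, with black bars at the mean of 3 libraries. For *Dnajb6* and *Dnajc19* the first row is lower and the second higher in CELF2-KI RIP than in input, while the *Dnajc5* row of CELF2-KI RIP overlaps input.

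Other genes of the folding machinery, on lists of cochaperones, prefoldin, ER lumenal chaperones, relatives under other symbols and heat shock factors, gave 2 of 54 tested genes higher and 14 lower than both controls (backgrounds 7.58% and 9.54%), and 0 and 21 with total counts in place of TMM. Among 30 cochaperones of HSP70 and HSP90, *Stip1*, the HOP adaptor between both, was lower at -1.62 ± 0.15 and -1.47 ± 0.15. Also lower were the exchange factors *Bag1*, *Bag2* and *Grpel1*, the HSP90 activator *Ahsa1*, and *Bag6*. *Sdf2l1*, an ER partner of BiP and its J proteins, was higher at 1.80 ± 0.22 and 1.04 ± 0.20, a call held under 3 of 12 other settings, and *Ptges3*, the HSP90 cochaperone p23, was higher over IgG RIP alone at 1.61 ± 0.20. Prefoldin, which hands chains to CCT, also had subunits on both sides, with *Pfdn1*, *Pfdn4* and *Pfdn6* lower (-2.29 and -3.002 for *Pfdn6*) and *Pfdn2* higher (1.58 ± 0.22 and 1.28 ± 0.21).

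Of the 8 other ER lumenal chaperones, *Pdia3*, *Pdia4*, *Ppib* and *Fkbp2* were lower than both controls, *Pdia4* at -1.65 ± 0.23 and -1.74 ± 0.23, while the lectin chaperone *Canx* did not pass at 0.09 and 0.08. The call of *Fkbp2* was kept in 2 of 9 fits that left out a library. *P4hb*, protein disulfide isomerase, was called higher over IgG RIP at 1.08 ± 0.15 (FDR = 1.63e-04) and not over input at 0.48 ± 0.15 (FDR = 0.0166), with its CELF2-KI RIPs above all 6 controls. *Cryab*, the small heat shock protein alpha B-crystallin, was lower at -1.87 ± 0.33 and -4.02 ± 0.32. *Hsf1*, the master regulator of the heat shock response, was lower over IgG RIP at -1.76 ± 0.19 (FDR = 4.35e-05), where IgG RIP was itself above input at 1.08 ± 0.19, and did not pass over input.

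Over neither control were 41 of the 73 members called. Of these, 6 lay above all 6 control libraries and 7 below, and the other 28 lay neither above nor below all 6. Of all tested genes, called or not, 25.2% lay above all 6 and 19.9% below. The log2 fold changes of the 41 members ran from -0.996 to 1.16 over IgG RIP and from -1.61 to 1.03 over input. *Dnaja2*, a cytosolic HSP40, stood at 53.99, 32.9 and 34.1 CPM in CELF2-KI RIP, 40.4, 40.9 and 52.2 with IgG and 62.3, 62.5 and 66.2 in input. *Hspa12a*, a divergent HSP70 of brain, stood at 145, 126 and 159 CPM in CELF2-KI RIP, 128, 132 and 140.4 with IgG and 127, 117 and 119.9 in input. *Hspb1*, the small heat shock protein HSP27, stood at 0.3999, 1.23 and 1.96 CPM in CELF2-KI RIP, 2.50, 1.29 and 1.003 with IgG and 3.26, 3.33 and 4.33 in input. In these 3 genes the CELF2-KI RIPs overlapped at least 1 control group and neither edgeR comparison passed. Those of *Dnaja2* (-0.66 ± 0.19 over input, FDR = 0.0132) and *Hspb1* lay below every input library. The change of *Hspb1* over input, -1.61, was the lowest of the 41. DESeq2 called 3 of the 4 tested small heat shock proteins lower over input, *Hspb1* among them. *Dnajc7*, a cochaperone with TPR repeats that binds HSP70 and HSP90, was singled out after its values were seen and stood at 12.96, 15.9 and 22.8 CPM in CELF2-KI RIP, 22.9, 22.003 and 12.3 with IgG and 12.9, 10.1 and 14.8 in input. *Dnajc13*, the endosomal RME-8, likewise singled out, stood at 80.2, 71.3 and 90.2 CPM in CELF2-KI RIP, 132, 119 and 126 with IgG and 78.5, 74.5 and 69.995 in input. The CELF2-KI RIPs of *Dnajc7* overlapped both controls, while those of *Dnajc13* overlapped input and lay below every IgG RIP (-0.64 ± 0.12, FDR = 9.03e-04), under 2-fold.

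Members with a mean of at least 100 CPM, 18 in all, included 2 higher and 5 lower than both controls, where 20.3% and 5.56% of 2320 genes at this level were. That mean was over all 9 libraries, CELF2-KI RIP included, so this split is not independent of the calls. *Dnajc18* was in, with means of 215 CPM in CELF2-KI RIP, 71.5 with IgG and 101 in input. *Cct4* was out, with means of 34.7, 83.9 and 117 CPM. Across the 73 members the log2 fold change over input had a Spearman correlation of 0.42 with the genomic span of the gene, against 0.28 across all tested genes, and 0.12 with the mean CPM. These are descriptions across genes, which are not independent, and transcript length was not measured. The 7 higher members had a median span of 26398 bases and the 15 lower ones of 12856, beside 24587 for all tested genes.

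Of the members not tested, *Dnajb5* was not analysed here for lack of a matching row and *Dnajc5g* had 0 counts. *Cct6b*, *Dnajb7*, *Dnajb8*, *Dnajc22*, *Dnajc5b*, *Hspb2*, *Hspb7* and *Hspb9* had at most 35 counts in any library. *Hspb2*, expressed in muscle, had 0 counts in the 3 CELF2-KI RIPs, where 3 counts of the protein-coding total are the limit that a count of 0 allows, and 10 to 32 in input. Differences in these genes were not detectable at this depth.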

How the data were processed

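RIP-seq was done on the cytoplasmic fraction of P0 cortex, with 3 libraries a group. The authors depleted rRNA, made directional libraries, ran FastQC, fastp and Ribodetector, and pseudoaligned with kallisto (0.51.1), per the study's methods and the submitters' processing notes. The notes name mm10, DESeq2 (1.46.0) and edgeR (4.4.0). The authors deposited estimated counts per transcript as kallisto gives them, which need not be whole and were not normalized. The methods name Ensembl as the source of the transcriptome, but the rows carry RefSeq accessions. Whether counting used the strand was not given in the sources used here, so reads of overlapping genes cannot be assigned with certainty.

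Rows were matched by accession, ignoring the version, to a RefSeq table of GRCm38.p6 (86722 of 107384 rows), summed per gene and rounded. Rows without a match, left out, held 9.24% to 12.6% of counts in input and CELF2-KI RIP and 21.1% to 43.5% in IgG RIP. Protein-coding genes that reached 0.5 CPM in 3 or more of the libraries entered 1 edgeR (4.0.16, R 4.3.3) quasi-likelihood fit over the 9 libraries with TMM. Adjusted p-values are Benjamini-Hochberg FDRs over the 15267 genes, and a call needed an FDR under 0.01 and 2-fold. Fold changes carry edgeR's prior count, which shrinks low genes. The steps were tested on simulated data. Ratios used exact permutation tests in SciPy (1.17.1). Standard errors cover the spread between these libraries, which the methods call biological replicates.

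Replicates of a group differed by more than sampling noise (chi-square per gene 12.2 to 46.0). Deviations from the group mean correlated between CELF2-KI RIP and input of the same number at 0.17, 0.15 and 0.24 over 9723 genes, and at -0.11, 0.04 and -0.06 for CELF2-KI RIP with IgG RIP. The number was thus taken to pair CELF2-KI RIP with input, and the block is an alternative.

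Members, lists and tests were chosen with earlier results of these data known. Named members are all called ones, the 3 with the highest mean CPM in each class, the 3 with the largest change each way in IgG RIP over input, and those next to the 2-fold line. Others are said to be singled out after their values were seen. The alternatives were 4 other scalings, DESeq2 (1.42.0), glmTreat, 2 filters, the block, fits of 2 conditions, matching transcript versions, and leaving out each library. Sums over coding transcripts alone, and count shares without *Hspa8* or *Dnajc5*, were added after seeing the data.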

Additional observations from a re-analysis of the deposited data

How the results depend on the processing

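Higher than both controls were 7 members, and 3 with total counts, 4 each with DESeq2 size factors, upper quartile, TMM over coding and noncoding genes, the DESeq2 Wald test, no filter, fits of only 2 conditions and matching transcript versions, 1 with glmTreat (*Dnajc5*), and 3 to 8 without 1 library (3 without input replicate 2). Lower than both were 15, and 25 with total counts, 23 with upper quartile, 2 with glmTreat and 10 to 16 without 1 library. Over IgG RIP the 8 higher became 4 with glmTreat, 5 with matching versions and 6 to 11 without 1 library, and the 16 lower became 28, 25 and 2 with total counts, upper quartile and glmTreat and 12 to 19 without 1 library. Over input the 9 higher became 3 with total counts, 5 each with DESeq2 size factors, the Wald test and no filter, 4 each with upper quartile, TMM over all genes, 2 conditions and matching versions, 1 with glmTreat and 3 to 10 without 1 library (5 without CELF2-KI RIP replicate 2 or input replicate 1, 3 without input replicate 2). The 21 lower became 7 with glmTreat and 13 to 23 without 1 library (13 without CELF2-KI RIP replicate 3). For IgG RIP over input, the 2 higher became 1 with TMM over all genes, 0 with glmTreat or matching versions and 1 to 2 without 1 library (1 without any input replicate), and the 3 lower became 0 with glmTreat and 1 to 3 without 1 library (1 without input replicate 1 or 2).

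J-domain members higher than both went from 5 to 3 with total counts, 1 with glmTreat and 3 to 6 without 1 library, and lower ones from 6 to 1 with glmTreat, 3 with 2 conditions and 2 to 6 without 1 library (3 without CELF2-KI RIP replicate 1 or input replicate 3, 2 without CELF2-KI RIP replicate 3). CCT lower went from 4 to 1 with glmTreat. Mitochondrial lower went from 3 to 6 with total counts, 5 with upper quartile, 0 with glmTreat and 2 to 4 without 1 library.

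The median over IgG RIP was -0.63 with total counts, -0.54 with upper quartile, -0.49 with TMM over all genes, -0.36 with no filter, -0.40 with matching versions, -0.40 with coding transcripts alone and -0.40 to -0.23 without 1 library. Over input it was -0.87 with total counts, -0.57 with DESeq2 size factors and with the Wald test, -0.67 with upper quartile, -0.80 with TMM over all genes, -0.55 with no filter, -0.66 with 2 conditions and -0.50 to -0.31 without 1 library. For IgG RIP over input it was -0.28 with TMM over all genes.

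Values that changed sign were *Hspa4* over input with total counts (-0.21) and TMM over all genes (-0.14), *Hspa14* over input with coding transcripts (-0.37), and *Hspb11* over input with matching versions (-0.63), where the main transcript is dropped. The cause of the others was not tested. *Hspa8*, *Cct2*, *Cct5*, *Hspb6* and *Hspbp1* have no value with matching versions.

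With the replicate block, 7 members were higher and 12 lower than both controls. The 3 lost were *Dnajc17*, *Dnajc21* and *Hspbp1*, *Dnajc27* over input was lost too (0.999), and the medians were -0.27 over IgG RIP and -0.42 over input. The block changed no other call of a member over IgG RIP or input. Depth limits members at a few CPM, such as *Dnajb13*, *Dnajc4* and *Hspb6*.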
